A study of Mus musculus with 6 samples.

Results

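Imprinted genes are genes of which only the copy from 1 parent is active, and 44 of them, at 18 loci outside the *Dlk1*-*Dio3* region, are described here. The 44 were taken from a list of mouse imprinted genes, chosen with earlier results of these data known. A gene was measured if the array's annotation tied at least 1 probe set, a group of short probes read together, to that gene alone, and each gene was represented by its probe set with the highest mean over all arrays. This left 42 measured genes of the 18193 measured on the arrays, 20 of them expressed from the paternal copy, 21 from the maternal copy and 1, *Gnas*, with transcripts of both kinds. *Slc22a3* and *Zrsr1* had no probe set of their own and were not analysed here. The arrays add up the RNA of both copies, so which allele was active was not measured.

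The knockout samples were fibroblasts from the tail tips of neonatal mice lacking *Hotair*, a long noncoding RNA of the *Hoxc* cluster, and the wild-type samples were the same kind of cells with *Hotair* intact. Both genotypes were on a background crossed back to C57BL6. There were 3 arrays per genotype, numbered as replicates 1 to 3, and no treatment was named. The series' title names the release of imprinted genes from repression, so the question was whether these genes differed between the genotypes. Values are log2 signals from RMA, a method that corrects and equalises arrays and summarises each probe set, so a difference of 1 is a doubling. *Hotair* itself was not analysed here, because no probe set was named for it alone, and the genotype labels were not checked against it.

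Imprinting is set in the germ line, where DNA methylation is laid on control regions of 1 parental copy and kept through later cell divisions. Genes of 1 locus often share a control region, and some loci carry a long noncoding RNA that silences its neighbours on the same chromosome, as *Airn* does at *Igf2r* and *Kcnq1ot1* at *Cdkn1c*. Many paternally expressed genes promote growth before birth, and many maternally expressed genes restrain it. Several are imprinted only in placenta or brain, such as *Dcn*, *Ascl2* and *Ube3a*, and in fibroblasts these can be read from both copies.

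The arrays differed by replicate number as well as by genotype. On the axis that carried most variance (48.9%), replicate 1 lay at −82.7 in knockout and −114.7 in wild type, and the other arrays lay at 39.3 to 74.7. Proliferation genes were low on the same arrays: the log2 of their summed signal was 14.35, 15.96 and 16.04 in knockout replicates 1, 2 and 3, against 14.07, 15.83 and 15.69 in wild type. In knockout replicate 1 the 3′ probe sets of the control transcripts exceeded the 5′ ones by 0.63 (*Actb*) and 0.75 (*Gapdh*), as happens in degraded RNA, and on the other arrays by at most 0.21 and −0.03. The part of these differences in the results was not tested. Results are therefore also given without replicate 1 of both genotypes, a comparison of 2 arrays with 2. Wild-type replicate 1 had no such 3′ excess (0.12 and −0.18) and was left out because it stood apart on that axis. Leaving out arrays for their values lowers the spread within groups, so p-values of that comparison can be too small. Of the 13 imprinted genes called in that comparison, 3 (*Cdkn1c*, *Igf2r* and *Grb10*) also had their representative probe set called when p-values were adjusted over all probe sets.

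The start regions of the genes on which the results turn differed widely in CpG dinucleotides, the sites at which imprints are methylated. The sequences below run from 250 bases before to 50 bases after a start site, 5′ to 3′ on the gene's strand, from RefSeq on GRCm38.p6, with each CpG in capitals. The table held 55 start sites of 36 of the 44 genes, and where a gene had several starts the one with the most CpG is shown, or the first listed if they were equal. The first pair is the maternally expressed *Igf2r*, on the minus strand at chr17:12769657-12769956, and *Airn*, the antisense RNA of the same locus, on the plus strand at chr17:12741061-12741360.
Igf2r: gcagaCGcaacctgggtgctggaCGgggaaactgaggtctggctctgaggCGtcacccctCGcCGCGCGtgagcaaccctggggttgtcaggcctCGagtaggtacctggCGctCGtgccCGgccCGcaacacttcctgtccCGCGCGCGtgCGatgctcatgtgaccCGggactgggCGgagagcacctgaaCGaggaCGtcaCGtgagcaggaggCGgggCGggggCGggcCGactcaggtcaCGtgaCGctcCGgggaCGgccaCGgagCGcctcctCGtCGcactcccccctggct
Airn: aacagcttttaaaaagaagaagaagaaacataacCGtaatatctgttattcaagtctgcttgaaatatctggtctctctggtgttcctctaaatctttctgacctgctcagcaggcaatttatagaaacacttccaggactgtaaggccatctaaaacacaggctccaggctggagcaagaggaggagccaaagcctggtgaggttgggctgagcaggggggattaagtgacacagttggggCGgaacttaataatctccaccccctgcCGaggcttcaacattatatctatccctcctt
The next 3 are among the paternally expressed genes whose knockout values lay above wild type in each replicate number, *Plagl1* (plus strand, chr10:13090582-13090881), *Slc38a4* (minus strand, chr15:97055907-97056206) and *Mest* (plus strand, chr6:30737800-30738099).
Plagl1: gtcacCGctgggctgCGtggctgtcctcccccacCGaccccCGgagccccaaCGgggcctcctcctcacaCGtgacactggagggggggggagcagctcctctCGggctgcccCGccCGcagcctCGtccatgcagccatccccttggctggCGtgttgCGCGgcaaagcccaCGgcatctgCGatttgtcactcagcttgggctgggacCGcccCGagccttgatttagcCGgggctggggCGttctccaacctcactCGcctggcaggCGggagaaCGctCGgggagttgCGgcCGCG
Slc38a4: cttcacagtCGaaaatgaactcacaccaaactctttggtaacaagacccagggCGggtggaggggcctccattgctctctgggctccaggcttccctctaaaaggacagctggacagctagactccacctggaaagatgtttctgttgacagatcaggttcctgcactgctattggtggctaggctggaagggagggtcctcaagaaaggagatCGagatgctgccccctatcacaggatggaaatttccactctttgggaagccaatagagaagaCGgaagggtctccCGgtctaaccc
Mest: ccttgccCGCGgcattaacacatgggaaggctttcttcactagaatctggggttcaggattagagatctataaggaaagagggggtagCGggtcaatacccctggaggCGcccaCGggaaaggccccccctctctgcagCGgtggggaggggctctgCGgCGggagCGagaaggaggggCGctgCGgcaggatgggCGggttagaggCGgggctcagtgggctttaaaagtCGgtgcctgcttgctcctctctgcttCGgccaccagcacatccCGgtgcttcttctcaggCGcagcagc
The last pair had the largest negative differences among measured genes with a listed start, *Grb10* (minus strand, chr11:12037371-12037670) and *Kcnq1ot1* (minus strand, chr7:143296498-143296797).
Grb10: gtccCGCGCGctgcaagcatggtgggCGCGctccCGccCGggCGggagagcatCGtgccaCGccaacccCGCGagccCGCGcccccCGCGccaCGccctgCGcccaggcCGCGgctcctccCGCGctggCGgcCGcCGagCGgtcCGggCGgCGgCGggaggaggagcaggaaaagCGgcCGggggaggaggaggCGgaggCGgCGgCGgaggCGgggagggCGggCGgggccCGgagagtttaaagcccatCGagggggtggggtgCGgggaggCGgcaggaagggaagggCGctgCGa
Kcnq1ot1: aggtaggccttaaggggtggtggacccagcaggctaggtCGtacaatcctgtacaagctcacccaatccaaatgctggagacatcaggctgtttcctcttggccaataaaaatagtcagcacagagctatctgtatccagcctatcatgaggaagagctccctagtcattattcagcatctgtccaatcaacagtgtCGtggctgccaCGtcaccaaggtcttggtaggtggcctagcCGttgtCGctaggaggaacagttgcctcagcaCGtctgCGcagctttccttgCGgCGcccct
*Grb10* held 45 CpG, *Igf2r* 34, *Plagl1* 26, *Mest* 17, *Kcnq1ot1* 9, *Slc38a4* 5 and *Airn* 3. The median was 7 over 32851 mouse start regions of this length and 15 over the 55 listed here. These medians cover all starts, while the start with the most CpG is shown for genes with several. Another *Grb10* start held 9 CpG and another *Mest* start 8. The letters TGCCGC, read on both strands, are the core that the imprint-keeping protein ZFP57 recognises when methylated. They stood in 13 of the 55 regions (23.6%) and in 11.6% of all regions, with 2 matches in the *Mest* sequence, 1 in *Plagl1*, 1 in *Grb10* and none in the other 4 shown. GGGGCCCC, letters of the binding consensus of the PLAGL1 protein, stood in 4 of 55 (7.27%) and in 1.08% of all regions, among them *Peg3* and *Usp29*. TATAAA stood in 11 of 55 (20.0%) and in 13.6% of all. Some windows overlap, such as those of *Peg3* and *Usp29* and those of neighbouring *Mest* starts, so shared letters are counted more than once. The higher CpG content of the 55 windows was not taken into account in these shares. These matches describe the letters of these windows.

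Over all 6 arrays no imprinted gene passed the test. By limma, with adjustment over all genes, 0 of 42 had an adjusted p under 0.05, and so did 0 of 18193 genes (0%). The smallest adjusted p of an imprinted gene was 0.743. At an unadjusted p under 0.05 there were 6 (6.68% of all genes), of which 4 were higher in knockout (*Slc38a4*, *Igf2r*, *Cdkn1c* and *Dcn*) and 2 lower (*Copg2* and *Grb10*). This was 9.52% and 4.76% of the 42, beside 4.01% and 2.67% of all genes. With the replicate number as a block, since the numbers were taken to pair the arrays, 13 were under 0.05, 9 higher and 4 lower (21.4% and 9.52%, beside 6.86% and 4.23% of all genes), and again 0 after adjustment. The knockout and wild-type values did not overlap for 5 (9.93% of all genes), 4 higher and 1 lower (9.52% and 2.38%, beside 5.56% and 4.38% of all genes).

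The median difference of the 42 was 0.03 on the log2 scale, beside 0.01 over all genes, with 24 above 0 and 18 below. The differences of single genes spread more widely. A difference of over 1 was found for 8 genes above and 3 below 0, which was 19.0% and 7.14% of the 42 beside 3.05% and 2.45% of all genes. The 3 below were *Grb10*, *Impact* and *Kcnq1ot1*. Of the 42, 15 had a mean at or below the median of all probe sets (5.64), a range in which RMA compresses differences, and 1 of these 15, *Asb4*, differed by over 1. The 27 genes above that median had a median absolute difference of 0.62, beside 0.29 for all genes above it.

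**Figure D1:**
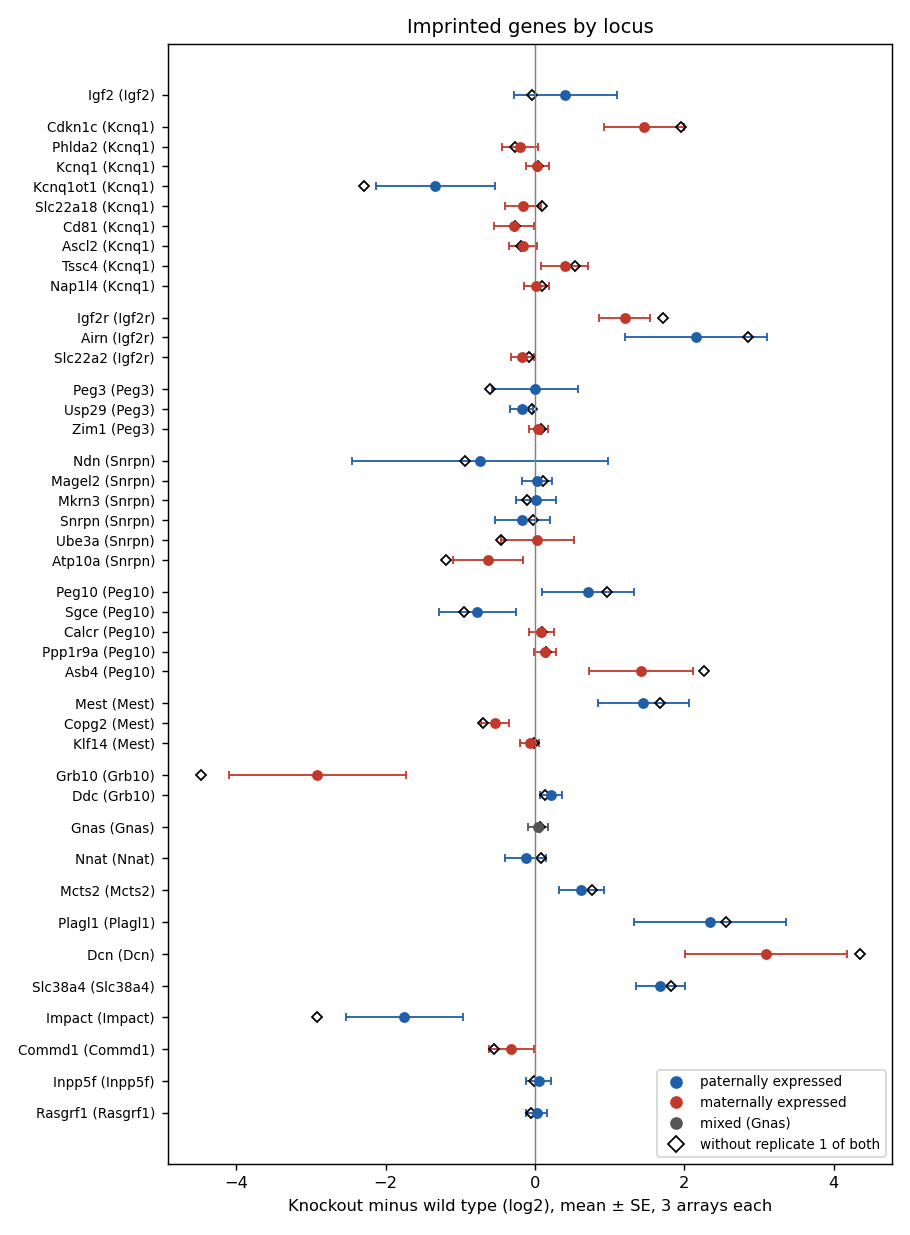
Knockout minus wild type on the log2 scale for the 42 measured imprinted genes, grouped by locus (name in brackets). Points are means over 3 arrays per genotype with the SE from limma, blue for paternally and red for maternally expressed genes, and open diamonds leave out replicate 1 of both genotypes. *Dcn* (3.10), *Plagl1* (2.35) and *Airn* (2.16) lie farthest to the right and *Grb10* (−2.92) farthest to the left, and most other genes lie near 0.

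The genes that receive, clear and dampen growth factor signals are described first. *Igf2*, the paternally expressed growth factor itself, measured 7.61, 5.14 and 5.58 in knockout replicates 1, 2 and 3, against 6.33, 5.46 and 5.33 in wild type. The groups overlapped, the array of knockout replicate 1 was the highest, and the difference of 0.41 ± 0.69 (SE) was below its error. Its second probe set differed by −0.09.

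*Igf2r*, the maternally expressed receptor that carries IGF2 to lysosomes for breakdown, measured 11.85, 12.77 and 12.59 in knockout, against 11.69, 10.73 and 11.18 in wild type. Each knockout value lay above all wild-type values, although replicate 1 of the genotypes differed by only 0.16. The difference was 1.20 ± 0.35 (SE; limma unadjusted p = 0.0139, adjusted p = 0.743). Its second probe set differed by 1.03. Without replicate 1 it rose by 1.72 ± 0.21 (limma adjusted p = 0.0114).

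*Airn*, the paternally expressed antisense RNA that silences the paternal *Igf2r* copy in mice, stood on the same side as *Igf2r*. It measured 6.08, 9.63 and 8.15 in knockout, against 5.31, 5.29 and 6.79 in wild type. The highest values were those of knockout replicates 2 and 3, and knockout replicate 1 lay below wild-type replicate 3. The difference was 2.16 ± 0.95 (SE; limma unadjusted p = 0.0645, adjusted p = 0.760), and 1.32 without knockout replicate 2. All 5 probe sets were above 0, from 0.38 to 2.16, the lowest on a dim probe set (3.63 to 4.55). Without replicate 1 *Airn* rose by 2.85 ± 0.66, just inside the threshold (limma adjusted p = 0.0496). A further probe set is annotated to both genes and was not used, and the strand that each *Airn* probe set reads was not tested. *Slc22a2*, a cation transporter of the same locus imprinted in placenta, differed by −0.17 ± 0.15.

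*Grb10*, a maternally expressed adaptor that binds the insulin and IGF1 receptors and restrains growth, gave the lowest difference of the 42. It measured 12.3, 8.17 and 7.94 in knockout, against 12.1, 12.64 and 12.43 in wild type. Knockout replicates 2 and 3 stood far below all other arrays, while knockout replicate 1 lay within the wild-type range. The difference was −2.92 ± 1.18 (SE; limma unadjusted p = 0.0498, adjusted p = 0.743), and by replicate number it was 0.21, −4.46 and −4.49. All 3 probe sets pointed down, from −2.92 to −1.31. Without replicate 1 of both genotypes *Grb10* fell by 4.48 ± 0.17 (limma adjusted p = 0.00178), and without knockout replicate 1 alone, whose control transcripts had the high 3′ excess, by 4.33 (adjusted p = 0.0263). It was the 1 imprinted gene that passed when a single array was left out. *Ddc*, the neighbour that makes dopamine and serotonin from their precursors and is paternally expressed in heart, differed by 0.21 ± 0.15.

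The *Kcnq1* domain held 9 measured genes, with a median difference of −0.16, 4 above and 5 below 0. *Cdkn1c*, the maternally expressed cell cycle inhibitor p57, measured 8.62, 8.34 and 8.21 in knockout, against 8.16, 6.16 and 6.48 in wild type. The groups did not overlap, and wild-type replicate 1 came close to the knockout values. The difference was 1.46 ± 0.53 (SE; limma unadjusted p = 0.0352, adjusted p = 0.743), and without replicate 1 *Cdkn1c* rose by 1.95 ± 0.18 (adjusted p = 0.00698).

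*Kcnq1ot1*, the paternally expressed noncoding RNA that silences *Cdkn1c* on its own chromosome, measured 5.68, 5.89 and 4.65 in knockout, against 5.10, 8.09 and 7.03 in wild type. Wild-type replicates 2 and 3 were the highest and wild-type replicate 1 lay inside the knockout range. The difference was −1.33 ± 0.80 (SE; limma adjusted p = 0.822), and by replicate number it was 0.58, −2.20 and −2.38. It was −0.66 without wild-type replicate 2 and −2.15 without wild-type replicate 1. Without replicate 1 it fell by 2.29 ± 0.52 (adjusted p = 0.0478). Of its 6 probe sets 4 pointed down, among them a dim one (2.83 to 4.39) at −0.26. The other 2, also dim (3.34 to 4.08), lay at 0.02 and 0.11. *Kcnq1ot1* lies within *Kcnq1* on the other strand, and the strand each probe set reads was not tested.

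The other 7 genes of the domain differed by less than 0.41. They were *Phlda2*, a maternally expressed brake on placental growth (−0.20 ± 0.24), *Kcnq1*, a potassium channel (0.03), *Slc22a18*, an organic ion transporter (−0.16), *Cd81*, a tetraspanin (−0.29), *Ascl2*, a transcription factor of placenta (−0.16), *Tssc4* (0.40 ± 0.31) and *Nap1l4*, a histone chaperone (0.02). None had an unadjusted p under 0.05.

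*Plagl1*, *Slc38a4* and *Mest*, paternally expressed genes at 3 separate loci, stood above wild type in every replicate number. So did other genes of both parental classes, 12 of the 42 in all (28.6%, beside 17.1% of all genes). *Slc38a4*, an amino acid transporter, measured 7.11, 6.47 and 7.22 in knockout, against 5.71, 4.74 and 5.29 in wild type. Every knockout value lay above every wild-type value, at 3.21-fold on average. The difference was 1.68 ± 0.32 (SE; limma unadjusted p = 0.00218, adjusted p = 0.743), the smallest p of the 42, and its range was 1.43 to 1.91 when each array was left out in turn. By replicate number it was 1.40, 1.72 and 1.93. The second probe set differed by 1.07, and without replicate 1 the gene rose by 1.82 ± 0.32 (adjusted p = 0.0252).

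*Plagl1* encodes a zinc finger factor that activates other imprinted genes and restrains the cell cycle. It measured 9.90, 12.71 and 12.65 in knockout, against 7.97, 9.51 and 10.73 in wild type. The groups overlapped between knockout replicate 1 and wild-type replicate 3, and within each genotype replicate 1 was lowest. The difference was 2.35 ± 1.02 (SE; limma unadjusted p = 0.0613, adjusted p = 0.760), and 1.93, 3.20 and 1.92 by replicate number. With the replicate block its SE was 0.31 (limma unadjusted p = 0.000996, adjusted p = 0.424). All 3 probe sets lay above 0, the other 2 at 0.40 and 0.65, and without replicate 1 it rose by 2.56 ± 0.40 (adjusted p = 0.0196).

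*Mest*, a hydrolase-like protein linked to growth and fat tissue, measured 8.36, 9.85 and 9.92 in knockout, against 7.36, 7.45 and 8.96 in wild type. Wild-type replicate 3 lay above knockout replicate 1, so the groups overlapped. The difference was 1.45 ± 0.61 (SE; limma unadjusted p = 0.0562, adjusted p = 0.749), and at least 0.96 in each replicate number. It did not pass without replicate 1 (1.68 ± 0.49, adjusted p = 0.0882). Its neighbour *Copg2*, a coat protein subunit of transport vesicles that overlaps *Mest* on the other strand, measured 8.66, 8.42 and 8.52 in knockout, against 8.87, 8.94 and 9.38 in wild type. The groups did not overlap, and *Copg2* was lower by a difference of −0.53 ± 0.18 (SE; limma unadjusted p = 0.0283, adjusted p = 0.743). *Klf14*, a maternally expressed transcription factor of the same locus, differed by −0.07 ± 0.13.

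**Figure D2:**
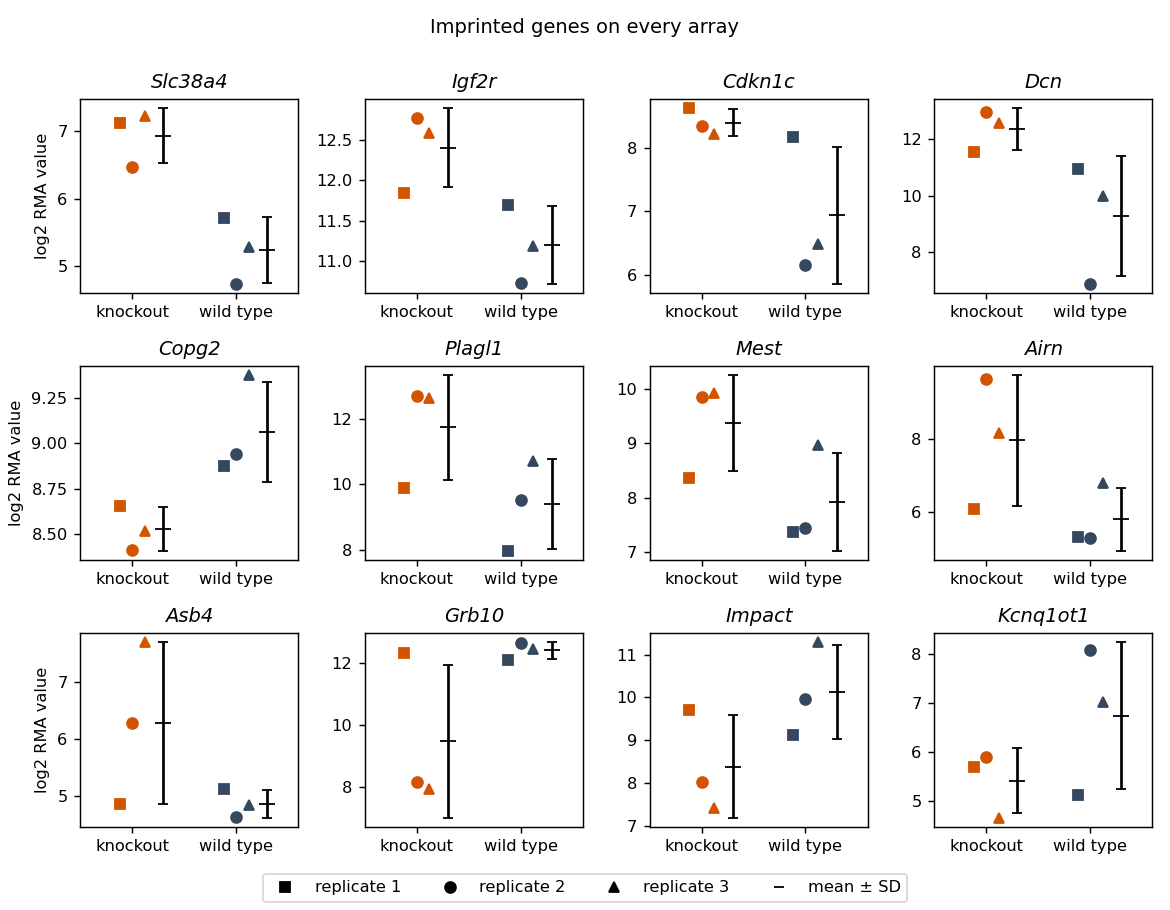
Log2 RMA values of 12 imprinted genes on each array, knockout in orange and wild type in dark blue, with squares, circles and triangles for replicates 1, 2 and 3 and bars for the mean ± SD of 3 arrays; each panel has its own vertical range. *Slc38a4*, *Igf2r*, *Cdkn1c*, *Dcn* and *Copg2* do not overlap between genotypes, while for *Grb10* knockout replicate 1 (12.3) sits with the wild type.

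*Dcn*, which encodes the matrix proteoglycan decorin and is maternally expressed in placenta, gave the highest difference. It measured 11.54, 12.98 and 12.58 in knockout, against 10.94, 6.87 and 9.9998 in wild type. The groups did not overlap, but wild-type replicate 2 stood more than 3 log2 units below the other wild-type arrays. The difference was 3.10 ± 1.08 (SE; limma unadjusted p = 0.0296, adjusted p = 0.743) and 1.90 without wild-type replicate 2. A second, dim probe set (3.72 to 5.27) differed by 0.53. *Lum*, the next gene of this proteoglycan cluster and a fibroblast marker, measured 10.46, 8.77 and 8.56 in knockout, against 8.79, 5.03 and 6.06 in wild type, with wild-type replicate 2 again the lowest. Without replicate 1 *Dcn* rose by 4.35 ± 0.98 (limma adjusted p = 0.0468).

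*Impact*, a paternally expressed regulator of translation under amino acid shortage, measured 9.72, 8.02 and 7.41 in knockout, against 9.12, 9.97 and 11.30 in wild type. Knockout replicate 1 lay inside the wild-type range and the other knockout arrays below it. The difference was −1.75 ± 0.78 (SE; limma unadjusted p = 0.0681, adjusted p = 0.760), with 0.60, −1.95 and −3.90 by replicate number. It was −1.16 without wild-type replicate 3. All 3 probe sets lay below 0, from −1.75 to −0.11, and without replicate 1 it fell by 2.92 ± 0.47 (adjusted p = 0.0212).

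The 5 genes measured at the *Peg10* locus lay on both sides of 0. *Asb4*, a maternally expressed partner of a ubiquitin ligase, measured 4.86, 6.29 and 7.71 in knockout, against 5.12, 4.63 and 4.84 in wild type. Knockout replicates 2 and 3 were above all other arrays and knockout replicate 1 was not. The difference was 1.42 ± 0.70 (SE; limma adjusted p = 0.774), and the second probe set differed by 1.15. Leaving out knockout replicate 3 alone gave 0.71, and knockout replicate 1 alone 2.13. Without replicate 1 of both genotypes *Asb4* rose by 2.26 ± 0.47 (adjusted p = 0.0365).

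*Peg10*, a gene of retrotransposon origin needed for the placenta, measured 4.34, 5.34 and 6.56 in knockout, against 4.13, 4.60 and 5.36 in wild type. *Sgce*, a sarcoglycan that starts head to head with *Peg10* and is also paternally expressed, measured 9.31, 10.04 and 10.52 in knockout, against 9.74, 11.26 and 11.19 in wild type. *Peg10* was thus above and *Sgce* below wild type in each replicate number, and both pairs of groups overlapped. The differences were 0.72 ± 0.62 for *Peg10* and −0.77 ± 0.52 for *Sgce* (SE). Without replicate 1 *Sgce* fell by 0.94 ± 0.21 (limma adjusted p = 0.0436) and *Peg10* did not pass (0.97 ± 0.47, adjusted p = 0.265). *Calcr*, the calcitonin receptor, and *Ppp1r9a*, the actin-binding neurabin, differed by 0.09 and 0.14.

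At the *Snrpn* locus, the region of the Prader-Willi and Angelman syndromes in humans, *Ndn* differed more by replicate number than by genotype. *Ndn*, a paternally expressed protein that holds back cell division, measured 12.44, 7.91 and 7.74 in knockout, against 12.79, 9.37 and 8.16 in wild type. Replicate 1 of both genotypes stood far above the other arrays, and the difference was −0.74 ± 1.71 (SE). Of 8 probe sets 7 lay below 0, among them dim ones (3.43 to 4.16) at −0.28 and −0.07. Without replicate 1 the *Ndn* difference was −0.94 ± 0.40 (limma adjusted p = 0.211).

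*Atp10a*, a membrane lipid transporter of that locus, measured 6.99, 6.73 and 7.09 in knockout, against 6.50, 8.19 and 8.01 in wild type. Wild-type replicates 2 and 3 were the highest and wild-type replicate 1 the lowest. The difference was −0.63 ± 0.47 (SE). All 4 probe sets lay below 0, but a dim probe set (3.69 to 4.09) did so at only −0.02. Without replicate 1 *Atp10a* fell by 1.19 ± 0.19 (limma adjusted p = 0.0199). *Ube3a*, the ubiquitin ligase that is maternally expressed in neurons, differed by 0.03 ± 0.49, *Magel2* by 0.03, *Mkrn3* by 0.01 and *Snrpn* by −0.17. The 6 probe sets shared by *Snurf* and *Snrpn* were not used.

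At the *Peg3* locus no representative probe set differed by more than its error except that of *Usp29*, a ubiquitin protease, at −0.18 ± 0.15 (SE). That probe set was dim (3.90 to 4.37), and the second one of *Usp29* differed by 0.23 ± 0.18. *Peg3*, a zinc finger factor, measured 7.93, 6.43 and 5.88 in knockout, against 6.73, 7.28 and 6.24 in wild type. Knockout values lay above wild type in replicate 1 and below it in the others, which gave a difference of −0.00 ± 0.58. Of the 5 *Peg3* probe sets 3 lay below 0 and 2 above, from −0.44 to 0.07, with 1 beyond its error at −0.33 ± 0.17. *Zim1*, a maternally expressed zinc finger gene, differed by 0.05.

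Among single-gene loci, *Mcts2*, a translation factor copied from *Mcts1*, measured 9.03, 9.98 and 9.83 in knockout, against 8.68, 9.09 and 9.20 in wild type. It was above wild type in each replicate number, by 0.62 ± 0.30 (SE; limma unadjusted p = 0.0831, adjusted p = 0.769), and without replicate 1 it rose by 0.76 ± 0.15 (adjusted p = 0.0339). Whether its probes also read *Mcts1* was not tested. The remaining differences were 0.04 ± 0.13 for *Gnas*, the stimulatory G protein subunit, −0.12 ± 0.28 for *Nnat*, a small membrane protein of brain, −0.32 ± 0.30 for *Commd1*, a copper handling protein, 0.05 ± 0.16 for *Inpp5f*, a phosphoinositide phosphatase, and 0.02 ± 0.14 for *Rasgrf1*, an activator of Ras.

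Both parental classes held genes above and below wild type. The 20 paternally expressed genes had a median difference of 0.03, 12 above and 8 below 0, and the 21 maternally expressed genes one of 0.02, 11 above and 10 below. The median absolute difference was 0.51 for paternally and 0.20 for maternally expressed genes, beside 0.18 for all genes, and 6 and 5 of them differed by over 1. For the 24 genes imprinted in many tissues it was 0.67, and 0.17 for the 18 whose imprint is known mainly from placenta, brain or a few other tissues. Without replicate 1, *Igf2r* and *Airn*, neighbours of opposite parental origin, both rose, while *Cdkn1c* rose and *Kcnq1ot1* fell. At the separate *Dlk1*-*Dio3* region, *Dlk1* and *Meg3* differed by 2.17 ± 0.63 and 1.90 ± 0.57 (SE).

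Without replicate 1 of both genotypes, 13 of the 42 imprinted genes passed. By limma with adjustment over all genes, 8 rose (*Dcn*, *Airn*, *Plagl1*, *Asb4*, *Cdkn1c*, *Slc38a4*, *Igf2r* and *Mcts2*) and 5 fell (*Grb10*, *Impact*, *Kcnq1ot1*, *Atp10a* and *Sgce*). These were 19.0% and 11.9% of the 42, beside 7.56% and 6.41% of all genes, of which 2542 passed (14%). With array weights, which count discordant arrays for less, 9 were called higher and 4 lower, beside 6.7% and 4.85% of all genes. Over all 45037 probe sets 1836 passed (4.08%), and 7 of the 100 probe sets of the imprinted genes did. In that fit the representative probe sets of the other 10 genes had adjusted p-values of 0.0521 (*Atp10a*) to 0.116 (*Airn*). In replicate 1 the same genes differed by between −0.43 (*Sgce*) and 1.93 (*Plagl1*), and those of *Asb4*, *Grb10*, *Impact*, *Kcnq1ot1* and *Atp10a* had the opposite sign.

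**Figure D3:**
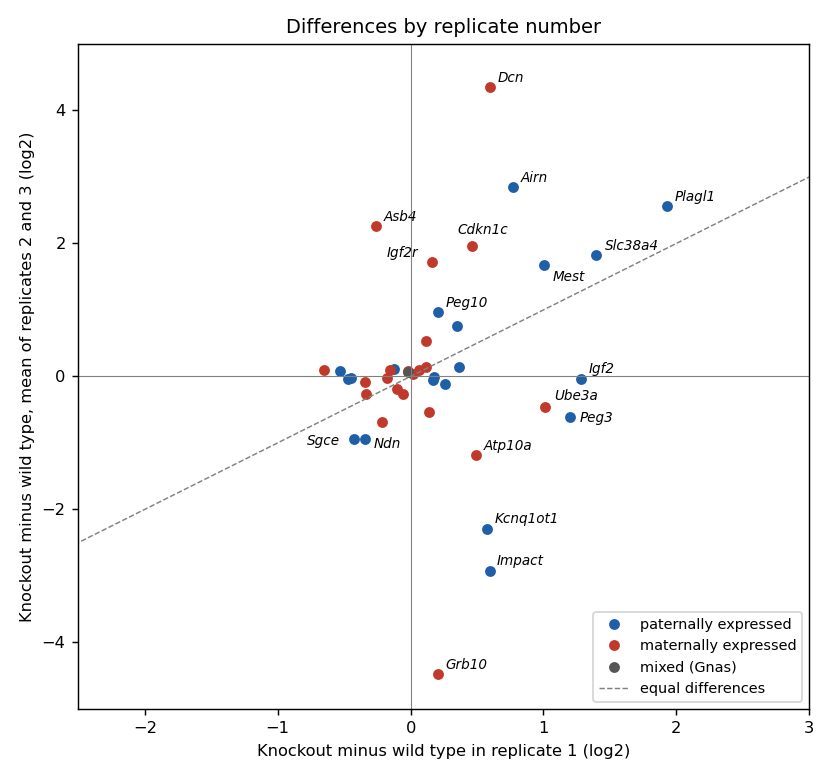
Knockout minus wild type on the log2 scale in replicate 1 (horizontal) and in the mean of replicates 2 and 3 (vertical) for the 42 imprinted genes; the dashed line marks equal differences, and the axes have different scales. *Plagl1* and *Slc38a4* lie near the line at the upper right, while *Grb10*, *Impact*, *Kcnq1ot1* and *Asb4* differ only in replicates 2 and 3 beyond 1 log2 unit.

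Of 42 genes 24 had more than 1 probe set, and for 13 of these (54.2%) all lay on the same side of 0, beside 59.6% of the 9010 genes with several probe sets. These 13 included *Airn*, *Igf2r*, *Plagl1*, *Slc38a4*, *Asb4*, *Dcn*, *Grb10*, *Impact*, *Sgce* and *Atp10a*. The 11 split genes were *Ascl2*, *Ddc*, *Igf2*, *Inpp5f*, *Kcnq1ot1*, *Ndn*, *Peg3*, *Ppp1r9a*, *Rasgrf1*, *Ube3a* and *Usp29*. The sizes differed, as in *Dcn* (3.10 and 0.53) and *Plagl1* (2.35, 0.65 and 0.40). The smaller differences came from dimmer probe sets, at 3.72 to 5.27 for *Dcn* and 4.52 to 6.34 for *Plagl1*.

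**Figure D4:**
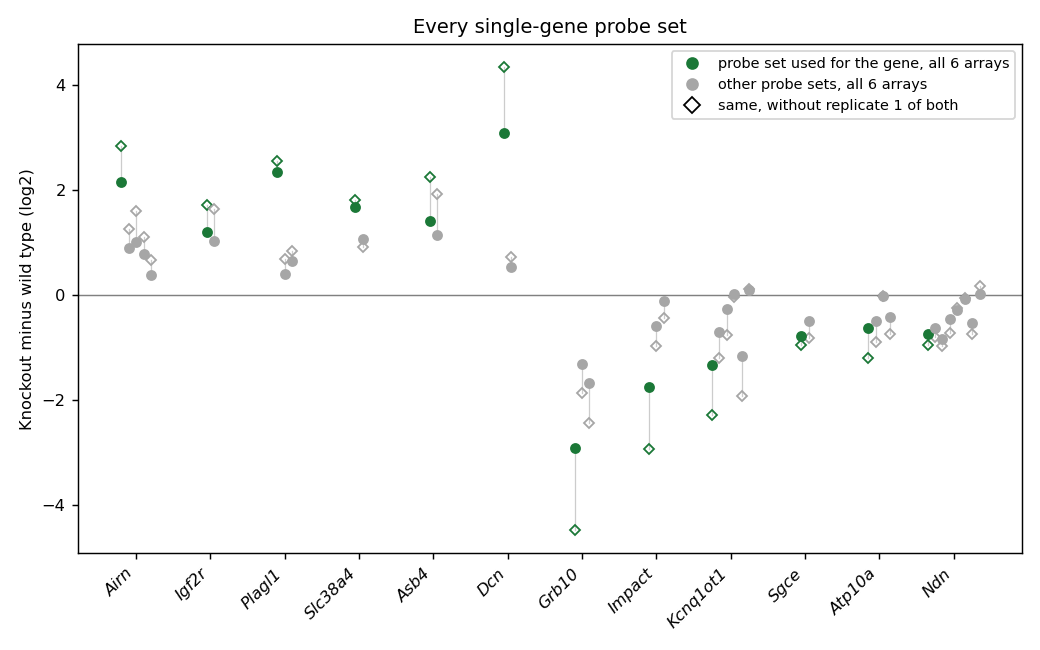
Knockout minus wild type on the log2 scale for every single-gene probe set of 12 imprinted genes; green marks the probe set that stands for the gene, grey the others, filled points all 6 arrays and open diamonds the values without replicate 1 of both genotypes. The 3 probe sets of *Grb10* lie below 0 (−2.92 to −1.31) and the 5 of *Airn* above it (0.38 to 2.16).

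Genes that flank the loci were set beside them. Taking the nearest 3 measured genes on either side gave 105 genes, of which some, such as *Peg12* and *Gnasas1*, are imprinted themselves. Their median difference was −0.01, with 50 above and 55 below 0, and 9 had an unadjusted p under 0.05, 6 higher and 3 lower (5.71% and 2.86%, beside 4.01% and 2.67% of all genes). Their median absolute difference was 0.19, beside 0.25 for the 42 imprinted genes, and 5 differed by over 1 upward and 4 downward. Without replicate 1 of both genotypes 11 rose and 11 fell by limma (10.5% each, beside 7.56% and 6.41% of all genes). The largest differences of a flank were 2.64 for *Lum* beside *Dcn*, 1.68 for *Lsp1* beside *Igf2*, −1.76 for *LOC102631979* beside *Grb10* and 1.31 for *Pdk4* at the *Peg10* locus. Next to *Plagl1* the largest was −0.96 (*Utrn*), next to *Slc38a4* 0.95 (*Rpap3*), next to *Igf2r* 0.65 (*Map3k4*) and next to *Mest* −0.60 (*Lncpint*).

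**Figure D5:**
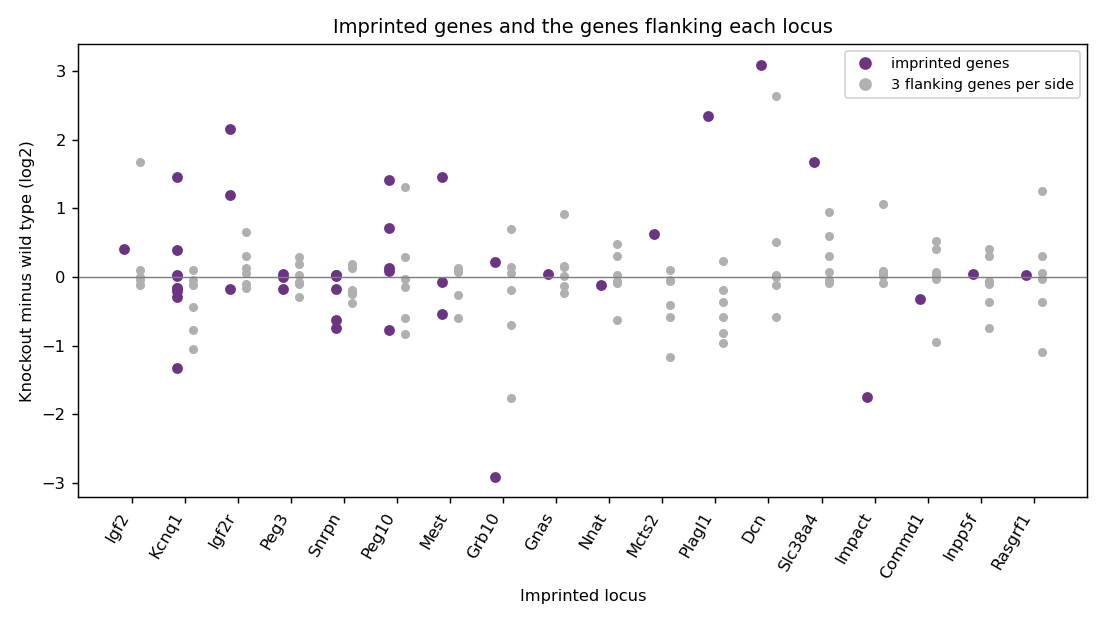
Knockout minus wild type on the log2 scale at each of 18 loci, with the measured imprinted genes in purple and the nearest 3 measured genes on either side in grey. *Plagl1* (2.35), *Slc38a4* (1.68) and *Impact* (−1.75) lie outside the range of their flanks, while *Dcn* (3.10) has *Lum* (2.64) close by.

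Genes that lay down, keep or erase imprints were examined from a list. The 23 measured had a median difference of 0.39, 17 of them above 0 and 6 below, beside a median of 0.01 for all genes. Proliferation genes lay on the same side, 15 of 18 above 0 with a median of 0.41 and *Mcm7*, a replication helicase subunit, at 0.73 ± 0.41 (SE), and their part in the values of this list was not tested. None of the 23 passed after adjustment, and at an unadjusted limma p under 0.05 there were 5 higher and 1 lower, beside 4.01% and 2.67% of all genes. The smallest p belonged to *Zfp57*, the zinc finger protein that guards methylated imprints. It measured 6.05, 6.28 and 6.27 in knockout, against 5.67, 5.50 and 5.56 in wild type, so the groups did not overlap (0.63 ± 0.14, SE; limma adjusted p = 0.743). The other 4 higher genes, named after their values were seen, were its partner *Trim28* (0.49 ± 0.14), the maintenance methyltransferase *Dnmt1* (0.64 ± 0.22), the methyltransferase *Dnmt3b* (0.74 ± 0.30) and *Tet1* (1.41 ± 0.44), which oxidises methylcytosine. *Mbd3* was the 1 lower (−0.55 ± 0.15). Of the 23, 9 rose and 1 fell without replicate 1 of both genotypes, beside 7.56% and 6.41% of all genes.

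Subunits of Polycomb repressive complex 2, which marks silenced genes and was linked to *Hotair* in earlier work, had a median difference of 0.03 over 12 genes, with *Rbbp4* at 0.31 ± 0.13 (SE). None passed, 0 had an unadjusted limma p under 0.05, and without replicate 1 of both genotypes 3 of 12 fell and 0 rose, beside 6.41% and 7.56% of all genes. Partners of IGF2 signalling had a median of 0.49 over 14 genes, beside 0.01 for all genes. At an unadjusted limma p under 0.05, 2 were higher and 1 lower, beside 4.01% and 2.67% of all genes. The smallest p was that of *Igf2bp3*, which binds *Igf2* mRNA, at 0.73 ± 0.20 (limma adjusted p = 0.743). Of these 14, 6 rose and 3 fell without replicate 1 of both genotypes, beside 7.56% and 6.41% of all genes.

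All 14 markers of fibroblasts, the labelled cell type, had means over the 6 arrays above the median of all probe sets. Their summed signal on the log2 scale was 16.77 to 17.08 in knockout and 16.54 to 16.78 in wild type, with *Col3a1* at 0.59 ± 0.23 (SE). Of the 14, 11 lay above 0 and 3 below, with a median difference of 0.48, and 4 differed by over 1, namely *Postn* (2.96), *Thy1* (2.85), *Lum* (2.64) and *Pdgfra* (1.65), named after their values were seen. Without replicate 1 of both genotypes 4 rose and 0 fell, beside 7.56% and 6.41% of all genes. Wild-type replicate 2 was the lowest array for *Postn*, *Thy1* and *Lum*, as it was for *Dcn*. On that array *Thy1* (4.65) and *Lum* (5.03) lay below the median of all probe sets (5.64). Levels of different lists cannot be set against each other, so markers of other cell types are compared between arrays only. The gene of smallest p is named for each list. Summed signals were 8.88 to 9.30 in knockout and 9.14 to 9.41 in wild type for 9 keratinocyte markers. Of these, 4 lay above 0 and 5 below, with a median difference of −0.01 (*Dsp* at −2.20). Means of 6 of the 9 were at or below the median of all probe sets. The 7 endothelial markers, all at or below that median, summed to 6.95 to 7.15 in knockout and 7.03 to 7.26 in wild type. Of these 7, 1 lay above 0 and 6 below (*Emcn* at −0.25). The 9 skeletal muscle markers summed to 8.36 to 11.63 in knockout and 9.59 to 12.92 in wild type. Of these 9, 2 lay above 0 and 7 below, with a median difference of −0.08 (*Acta1* at −2.27). Most of the sum in replicate 1 was *Acta1* (11.48 in knockout, 12.85 in wild type). Means of 7 of the 9 were at or below the median of all probe sets. The 7 chondrocyte markers summed to 8.32 to 8.85 in knockout and 8.48 to 10.02 in wild type. Of these 7, 4 lay above 0 and 3 below, with a median difference of 0.035 (*Col10a1* at −0.71). For 6 neural and glial markers the summed signals were 10.29 to 11.80 in knockout and 10.58 to 12.06 in wild type. Of the 6, 1 lay above 0 and 5 below, with a median difference of −0.13 (*Tubb3* at −1.10).

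The leukocyte and adipocyte lists held genes on both sides of 0. Knockout replicate 1 had a summed signal of 11.46 for 9 leukocyte markers, against 8.71 and 9.11 in the other knockout arrays and 9.54 to 9.89 in wild type. *Lyz2* (10.57) and *Tyrobp* (9.14) were highest on that array. Of the 9, 6 were above 0 and 3 were below, at a median of 0.14, while the marker of smallest p, *Cd14*, lay at −1.97. The 5 adipocyte markers summed to 10.17 to 12.31 in knockout and 8.13 to 9.66 in wild type, 3 above 0 and 2 below with a median of 0.45. Most of the sum in knockout replicates 2 and 3 was *Lpl*, a lipase (12.21 and 11.74), which differed by 4.22. *Cebpa*, a factor of fat cells, differed by 1.84 ± 0.48 (SE), *Pparg* by 0.45 and *Fabp4* by −0.32, while *Adipoq* lay at 3.57 to 3.64 in knockout and 3.47 to 3.81 in wild type. The part of these levels in the values of the imprinted genes was not tested, and in bulk RNA fewer cells of a type and less RNA per cell cannot be told apart.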

How the data were processed

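Total RNA of 6 samples, 3 *Hotair* knockout and 3 wild type, was measured on Affymetrix mouse arrays. Per the submitters' processing notes, RMA in R 2.11.1 made the deposited values, which are on a log2 scale. From these, limma 3.58.1 in R 4.3.3 (lmFit, eBayes) compared genotypes over 18193 genes, and over 45037 probe sets, with Benjamini-Hochberg adjustment at 0.05. Of 45037 probe sets 34945 had 1 gene, 932 several and 9160 none in GEO's platform annotation, of which those with several or none were not named. Flanking genes came from the gene order of GRCm38.p6, which matched 99.4% of single-gene probe sets by Entrez identifier. The scripts were tested on simulated data.

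Samples of equal replicate number deviated together (correlations of 0.51, 0.39 and 0.35 for numbers 1, 2 and 3). By rule the replicate block therefore treated the arrays as paired by number, and all other fits compared genotypes without pairing. Wild-type array 3 correlated better with knockout array 2 (0.43), and wild-type array 2 correlated with knockout array 3 at 0.28. Deviations were taken from the mean of the 3 arrays of a genotype, and replicate 1 stood apart in both genotypes. Arrays 2 and 3 then correlate across genotypes however they are paired, so these values cannot settle their pairing. Whether replicates came from different mice is not given in the labels. The p-values therefore reflect only variation among these samples, possibly technical. Precision is limited by the small number of arrays.

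The members and lists were chosen with earlier results of these data known, including the alternative without replicate 1. Named genes were all measured imprinted genes, with every array where groups did not overlap or the difference passed 1, the gene of smallest p in each list, the flanking genes of largest difference, and *Dlk1* and *Meg3*. Lists are described by counts and medians without a test. Alternatives were the replicate block, leaving out arrays, other probe set choices, a filter on dim genes, eBayes with trend and robust, renormalisation and array weights. Tables and figures used Python 3.11.15, pandas 2.3.3 and matplotlib 3.10.9.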

Additional observations from a re-analysis of the deposited data

How the results depend on the processing

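With the replicate block 13 imprinted genes had an unadjusted p under 0.05 (31% of the 42, beside 11.1% of all genes). Without it there were 6 (14.3%, beside 6.68% of all genes). With the block 0 genes, 0 imprinted genes and 0 probe sets passed after adjustment. Leaving out replicate 1 of both genotypes gave 2542 genes, 13 imprinted genes (15 unadjusted) and 7 imprinted probe sets. Array weights, which weighted knockout replicate 1 at 0.33 and wild-type replicate 1 at 0.24 against 1.04 to 3.18 for the others, gave 2101 genes, 13 imprinted genes (17 unadjusted) and 0 imprinted probe sets. These 13 held *Mest* in place of *Sgce* and were otherwise those called without replicate 1. Leaving out 1 array at a time gave 0 to 87 genes, 0 to 1 imprinted genes, 2 to 12 at unadjusted p and 0 to 2 probe sets, and the highest came without knockout replicate 1. Removing knockout replicate 2, or knockout replicate 3, left 0 genes and 0 imprinted genes called. The causes of these shifts were not tested. Other probe set choices, the filter on dim genes, the other eBayes setting and renormalisation called 0 genes. The median difference of the imprinted genes lay between −0.05 and 0.09 in all alternatives. Of the imprinted genes with a difference over 1, leaving out any 1 array turned no direction. The sign of other imprinted genes turned in 1 to 7 of 42 when 1 array was left out. Few arrays, with 2 per genotype after replicate 1 is removed, limit what can be called. Replicate 1 was removed, or given less weight, because of its values in these same data, so p-values of those fits can be too small.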

Other observations

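Imprinted genes also differed between replicate numbers. The mean of both replicate 1 arrays differed from the mean of the other 4 arrays by over 1 on the log2 scale for 10 of 42 imprinted genes (23.8%), beside 14.2% of all 18193 genes. *Ndn* stood 4.32 higher, *Grb10* 1.90, *Igf2* 1.59 and *Cdkn1c* 1.09 higher on replicate 1. *Plagl1* stood 2.47 lower there, *Airn* 1.77, *Sgce* 1.23, *Peg10* 1.22, *Mest* 1.18 and *Kcnq1ot1* 1.02 lower. For 2 of them the genotypes went opposite ways. *Grb10* on replicate 1 stood 4.25 above the other arrays in knockout and −0.44 from them in wild type. *Kcnq1ot1* stood 0.41 above in knockout and −2.46 from them in wild type. *Cdkn1c* stood 0.35 above in knockout and 1.84 above in wild type. These 10 were picked by their values, and each replicate number has 1 array per genotype, so no test was made.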
